A study of Mus musculus with 4 samples.

Results

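The genes described here encode 10 secreted effector proteins of T cells: the cytokines Il10, Ifng, Il2, Il21, Tgfb1 and Lta, the chemokines Ccl3, Ccl4 and Ccl5, and the protease Gzmb. They were chosen by symbol, with earlier results of these data known, and all 10 were found among the 47643 Ensembl genes of the count table. Of the 10, 8 had at least 10 counts over the 4 libraries and entered the test over 9608 genes. Ccl3, with 3 counts in all, and Ccl5, with 6, did not.

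Messenger RNA was counted in CD4+ T cells from the spleens of Tg4 Nr4a3-Tocky Il10-EGFP mice, all injected under the skin with [4Y]-MBP peptide at 4 mg/kg in PBS and killed 24 h later. The Tg4 transgene gives the T cells a receptor for a myelin basic protein peptide, Nr4a3-Tocky is a fluorescent Timer protein under the control of Nr4a3, and Il10-EGFP reports Il10 transcription. The 2 populations carried the same alleles and the same dose, and both were sorted as Timer+, that is, from cells with recent T cell receptor signaling. Their sort gates differed in the reporter alone: 2 libraries came from Il10-EGFP+ and 2 from Il10-EGFP- cells. No library of unimmunized mice or of Timer- cells was part of the comparison, the responding cells share 1 transgenic receptor, and age was not given. The study used mice of both sexes, and which sex gave each library was not stated. The sort, dose and time come from the study's text and not from the labels. The study's methods call a replicate pair biological. Whether the 2 libraries with 1 number came from 1 mouse was not stated, so p-values refer to these libraries and not to a known number of mice. The question was which effector transcripts accompanied transcription of Il10 in cells that had all met the same antigen.

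These proteins have distinct known roles. IL-10 restrains antigen presentation and inflammation and defines type 1 regulatory (Tr1) cells, which make it without Foxp3 and can also make IFNγ. IL-2 is the growth factor that activated T cells release early after stimulation, IL-21 acts on B cells and on cytotoxic and follicular T cells, and IFNγ activates macrophages. TGF-β1 is a suppressive cytokine released in a latent form, lymphotoxin-α is a relative of TNF, and CCL3, CCL4 and CCL5 attract leukocytes to inflamed tissue. Granzyme B is the protease that cytotoxic lymphocytes deliver into target cells, and Tr1 cells are known to use it against antigen-presenting cells.

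The libraries were shallow, with 644679 to 730330 counts each. Cd4, Cd2 and genes of the T cell receptor complex, 8 markers in all, summed to between 2975 and 3543 CPM (counts scaled to a common library total with TMM factors), and each of them was detected in every library, as the label CD4+ T cell requires. Over all 9608 tested genes, edgeR's quasi-likelihood test called 4.09% at a Benjamini-Hochberg adjusted p under 0.05, 2.35% higher and 1.74% lower in Il10-EGFP+ T cells. The spread it used for a gene was largely shared across genes (prior degrees of freedom 52.2). Its p-values and intervals thus reflect little of a gene's own spread. Values below are TMM-scaled CPM unless counts are named, and 1 count was worth between 1.36 and 1.58 CPM. Reads came from the ends of transcripts, so a level is not divided by gene length.

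Of the 8 tested genes, Il10 and Gzmb were called higher in Il10-EGFP+ T cells, none was called lower, and 6 did not pass the test. Gzmb was the most abundant transcript of the group in Il10-EGFP+ cells and rose 3.01-fold. Il2 and Lta had fewer counts in both Il10-EGFP+ libraries than in either Il10-EGFP- library, without passing the test. Ifng was at the same low level in both populations. The libraries of the 2 populations did not overlap for 5 of the 8 genes (Il10, Gzmb and Tgfb1 above, Il2 and Lta below), against a background of 44.6% of all tested genes. The median log2 fold change of the 8 was 0.42, also with Il10 set to its lower bound, beside 0.00 for all tested genes.

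**Figure D1:**
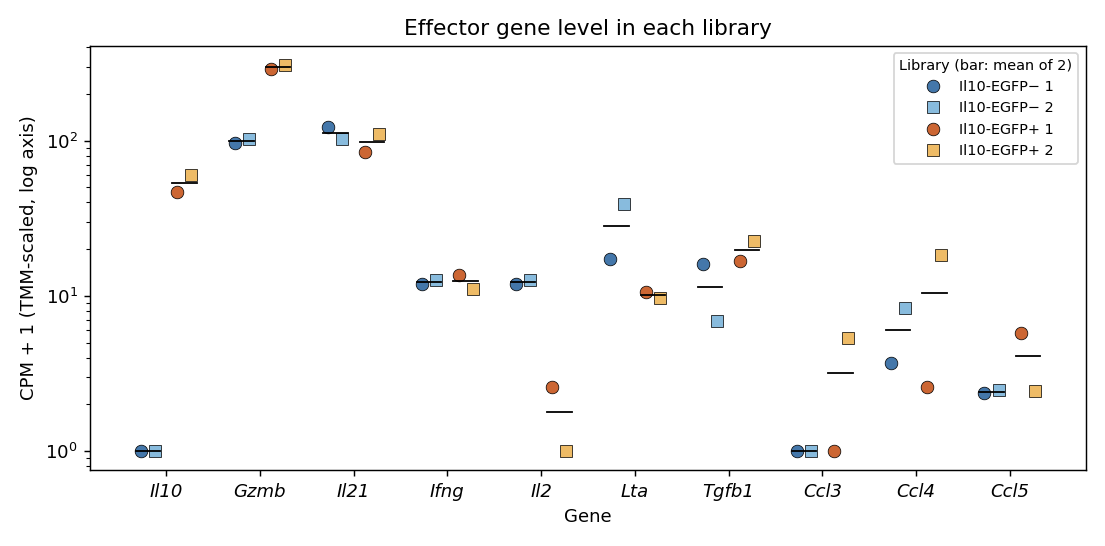
TMM-scaled CPM plus 1 (log axis) of the 10 genes in each of the 4 libraries (x axis: gene; circles, replicate 1; squares, replicate 2; bars, mean of 2 libraries). Gzmb and Il10 stand higher in both Il10-EGFP+ libraries, Il21 and Ifng overlap, and the chemokines lie near the level of a few counts.

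To show the regulatory sequence next to which the transcripts of 3 contrasting genes start, 150 bases before the RefSeq start site are given for Gzmb, which rose, Il2, which lay lower without passing the test, and Ifng, which was level. RefSeq windows on GRCm38.p6 from 250 bases before to 50 after the start were at hand for 7 of the 10 genes, without Il10, Ccl4 and Ccl5. The windows below are chr14:56262335-56262484 (minus strand), chr3:37125955-37126104 (minus strand) and chr10:118440896-118441045 (plus strand), written 5′ to 3′ in the direction of transcription. The RefSeq start of Gzmb lies 74 bases upstream of the GENCODE start used for the gene's coordinates, that of Il2 lies 5 bases downstream, and that of Ifng is the same base. Capitals mark matches on either strand to the letters searched: TATAAA (a core promoter element), TGANTCA (AP-1), GGAAA (core of NFAT sites), TGACGTCA (cAMP response element) and an NF-κB motif.
Gzmb: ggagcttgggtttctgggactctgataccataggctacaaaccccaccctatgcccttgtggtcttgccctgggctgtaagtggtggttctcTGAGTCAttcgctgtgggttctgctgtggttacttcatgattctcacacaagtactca
Il2: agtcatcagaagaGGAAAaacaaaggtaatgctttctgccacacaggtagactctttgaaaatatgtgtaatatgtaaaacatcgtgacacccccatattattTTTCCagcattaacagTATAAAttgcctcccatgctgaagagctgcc
Ifng: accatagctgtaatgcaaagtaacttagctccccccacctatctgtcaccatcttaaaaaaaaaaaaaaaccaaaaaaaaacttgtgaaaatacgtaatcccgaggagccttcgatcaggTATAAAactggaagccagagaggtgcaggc

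In the 7 windows of 300 bases, TGANTCA was found in Gzmb alone, and in 7.8% of 32851 mouse windows of that length. TATAAA was found in Il2, Ifng and Lta and in 13.6% of all windows. Its match began at -31 from the start in Il2 and -30 in Ifng, but at -167 in Lta. GGAAA was found in Il2, Il21, Ifng, Ccl3 and Lta and in 61.3% of all windows. TGACGTCA and the NF-κB motif were in none of the 7 and in 1.8% and 1.5% of all. Il2 and Ifng, whose levels are set side by side below, held the same 2 of the searched strings. A match describes these letters, not a site that is bound.

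Il10 (ENSMUSG00000016529, chromosome 1 of GRCm38, 131019845 to 131024974, plus strand) was counted 29 times in Il10-EGFP+ replicate 1 and 41 times in replicate 2, that is, 46.0 and 59.2 CPM. It had 0 counts in each Il10-EGFP- library, which allows up to 4.07 and 4.38 CPM at 3 counts per library. The populations thus did not overlap, and the level of Il10 rose by at least 12.4-fold with the reporter (edgeR adjusted p = 1.3e-08). Because the cells were sorted by the reporter of this gene, the difference describes the sort. Even after the sort, Il10 had 70 counts to 394 of Gzmb over the Il10-EGFP+ libraries. In a bulk sample, more cells with a transcript and more transcript per cell cannot be told apart.

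Gzmb (ENSMUSG00000015437, chromosome 14, 56258838 to 56262260, minus strand) was counted 182 and 212 times in Il10-EGFP+ cells, against 70 times in each Il10-EGFP- library. In CPM these were 288.4 and 305.9 against 95.02 and 102.1, so the gap between the populations far exceeded that within either. The log2 fold change was 1.59 with a standard error of 0.18 (edgeR adjusted p = 1.3e-08). The exact ratio of summed counts per scaled library total was 3.02, with a 95% interval of 2.49 to 3.69. Such intervals are Clopper-Pearson intervals that cover counting error only. Without Gzmb and Il10, the other 8 genes together came to 177.8 and 178.0 CPM in Il10-EGFP- and 129.9 and 173.1 CPM in Il10-EGFP+ T cells, so that the higher sum of all 10 genes, 464.3 and 538.1 against 272.8 and 280.1 CPM, came from these 2. Gzmb alone took 62.1% and 56.8% of the counts of the 10 genes in Il10-EGFP+ libraries, against 34.8% and 36.5% in Il10-EGFP- libraries.

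Il21 (ENSMUSG00000027718, chromosome 3, 37222759 to 37232636, minus strand) and Gzmb were the most abundant of the group in Il10-EGFP- T cells, where Il21 had 89 and 70 counts, or 120.8 and 102.1 CPM. In Il10-EGFP+ T cells it had 53 and 76 counts, or 84.0 and 109.6 CPM. The populations overlapped, and the log2 fold change of -0.20 had a 95% interval of -0.65 to 0.24 (edgeR adjusted p = 0.76). A change of 1 log2 unit in either direction lies outside that interval. Exons of Il21 overlap the antisense gene Gm12534, with 1 and 8 counts in Il10-EGFP- against 7 and 13 in Il10-EGFP+ libraries. Whether the counting used the strand was not stated, so reads of this pair cannot be told apart with certainty.

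Ifng (ENSMUSG00000055170, chromosome 10, 118441046 to 118445892, plus strand) had 8 and 8 counts in Il10-EGFP- against 8 and 7 in Il10-EGFP+ libraries. All 4 values lay between 10.1 and 12.7 CPM. The ratio of summed counts was 1.01, with an exact 95% interval of 0.46 to 2.17 for counting error. Ratios within that interval are not excluded by these counts. Its edgeR adjusted p was 0.996, and its log2 fold change of 0.01 took either sign when the scaling or a library was changed. In Il10-EGFP+ cells there were 70 counts of Il10 to 15 of Ifng, and in Il10-EGFP- cells 0 to 16.

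Il2 (ENSMUSG00000027720, chromosome 3, 37120523 to 37125959, minus strand) was counted 8 times in each Il10-EGFP- library, against 1 and 0 times in Il10-EGFP+ cells, or 10.9 and 11.7 against 1.58 and 0 CPM. The populations did not overlap. The exact ratio of Il10-EGFP- over Il10-EGFP+ was 14.9, with a 95% interval of 2.31 to 625. The difference did not pass the test across all genes (log2 fold change -3.61, unadjusted p = 0.0037, adjusted p = 0.072, edgeR). The log2 fold change was -2.69 without Il10-EGFP+ replicate 2. Without Il10-EGFP+ replicate 1, where the remaining library has 0 counts, it was -6.01. Il2 and Ifng were thus at an equal 8 counts in every Il10-EGFP- library. In the Il10-EGFP+ libraries Il2 had 1 and 0 counts and Ifng had 8 and 7. In the last 300 bases of the Il2 transcript, 138 of 251 stretches of 50 bases also occur in transcripts of Ntan1 in the same orientation, so some Il2 reads could have been left uncounted or assigned there. Ntan1 had 15 and 15 counts in Il10-EGFP- against 15 and 13 in Il10-EGFP+ libraries. None of the other 9 genes shared such a stretch with another gene.

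Lta (ENSMUSG00000024402, chromosome 17, 35203165 to 35205351, minus strand) had 12 and 26 counts in Il10-EGFP- against 6 and 6 in Il10-EGFP+ libraries, or 16.3 and 37.9 against 9.51 and 8.66 CPM. Both Il10-EGFP+ libraries lay below both Il10-EGFP- libraries, which themselves differed by more than the gap between the populations. The log2 fold change was -1.55 (standard error 0.54, edgeR adjusted p = 0.099), and the exact ratio of Il10-EGFP- over Il10-EGFP+ was 2.95, with a 95% interval of 1.51 to 6.20. Whether it passed depended on 1 library. The log2 fold change was -2.04 without Il10-EGFP- replicate 1 (edgeR adjusted p = 0.036) and -0.83 without Il10-EGFP- replicate 2 (adjusted p = 0.72).

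Tgfb1 (ENSMUSG00000002603, chromosome 7, 25687002 to 25705077, plus strand) had 11 and 4 counts in Il10-EGFP- against 10 and 15 in Il10-EGFP+ libraries, or 14.9 and 5.84 against 15.9 and 21.6 CPM. The lower Il10-EGFP+ library exceeded the higher Il10-EGFP- library by less than the value of 1 count. The log2 fold change of 0.83 (95% interval -0.31 to 1.98, edgeR adjusted p = 0.54) moved to 0.33 without Il10-EGFP- replicate 2 and to 1.66 without Il10-EGFP- replicate 1.

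The 3 chemokine genes lie close together on chromosome 11 and were near the limit of detection. Ccl4 (ENSMUSG00000018930, 83662584 to 83664683, plus strand) had 2 and 5 counts in Il10-EGFP- against 1 and 12 in Il10-EGFP+ libraries. The highest and the lowest value both came from Il10-EGFP+ T cells. Its count ratio was 1.99 (exact 95% interval 0.74 to 5.90), its edgeR adjusted p was 0.69, and its log2 fold change went from 0.94 to -1.54 without Il10-EGFP+ replicate 2. Ccl3 (ENSMUSG00000000982, 83647844 to 83649355, minus strand) had its 3 counts in Il10-EGFP+ replicate 2, the library with the 12 counts of Ccl4, and 0 in the other 3. Ccl5 (ENSMUSG00000035042, 83525778 to 83530518, minus strand) had 1 and 1 counts in Il10-EGFP- against 3 and 1 in Il10-EGFP+ libraries. Both genes stayed at or under 3 counts per library in both populations, and no fold is given.

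**Figure D2:**
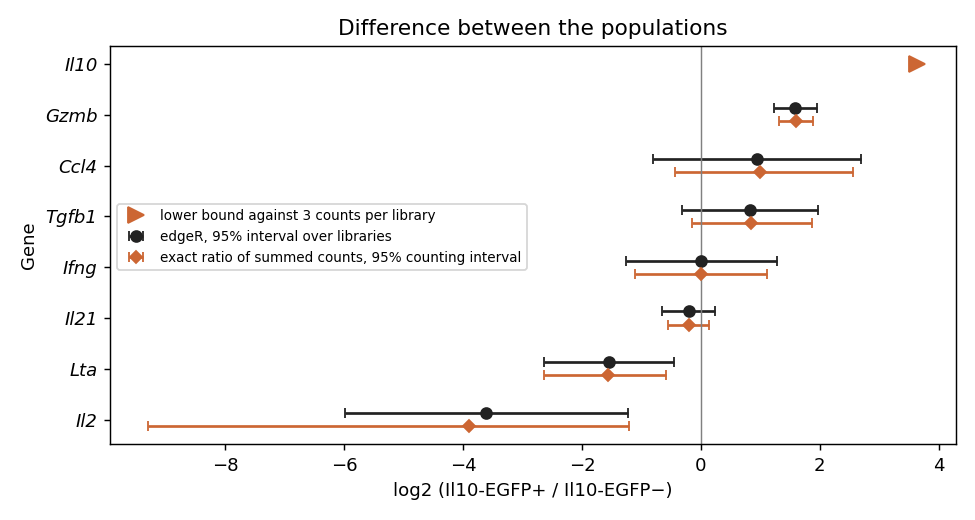
Log2 ratio of Il10-EGFP+ over Il10-EGFP- (x axis) for the tested genes (y axis), n = 2 libraries each. Black is the edgeR estimate with its 95% interval, whose spread was largely shared across genes. Orange is the exact ratio of summed counts with its 95% counting interval. The triangle for Il10 is the lower bound of 12.4-fold. Gzmb has a narrow interval above 0, Il21 a narrow one across 0, and Il2 and Lta have wide ones below 0.

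**Figure D3:**
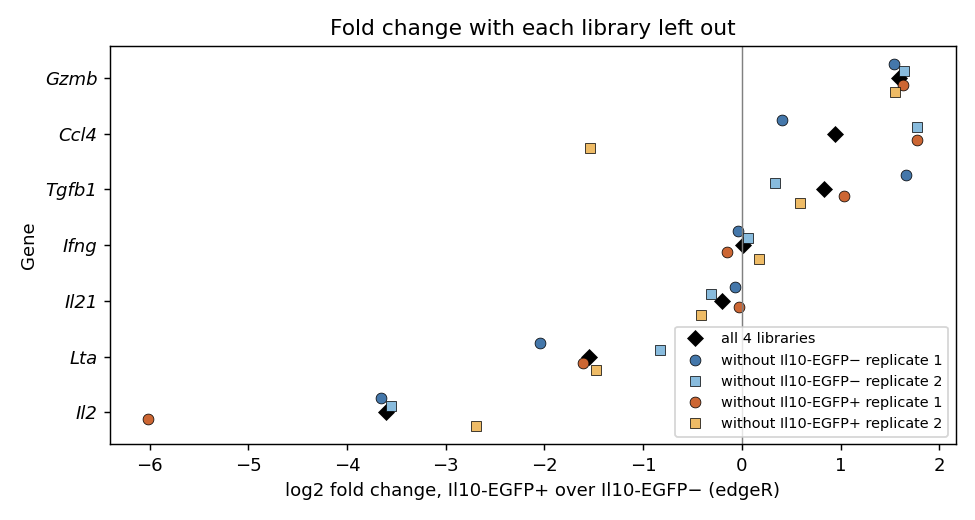
Log2 fold change from edgeR (x axis) of 7 genes (y axis) with all 4 libraries (black) and with each library left out in turn (colored). The points of Gzmb stay between 1.54 and 1.65, while those of Ccl4 cross 0 without Il10-EGFP+ replicate 2. The point of Il2 without Il10-EGFP+ replicate 1 is set against a library with 0 counts and depends on the prior count.

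With 2 libraries against 2, the exact two-sided permutation test over libraries cannot go below p = 0.333 for any single gene. The order of levels in Il10-EGFP- T cells was Il21 (mean 111.5 CPM) and Gzmb (98.6), whose libraries met at 102.1, then Lta (27.1), then Ifng and Il2 (11.3 each) and Tgfb1 (10.4), which overlapped. Ccl4 (5.00, overlapping Tgfb1) and Ccl5 (1.41) followed, and Il10 and Ccl3 were at 0. In Il10-EGFP+ T cells the order was Gzmb (297.1 CPM), Il21 (96.8), Il10 (52.6) and Tgfb1 (18.7), and neighbors among these 4 did not overlap. Below them Ifng (11.4), Ccl4 (9.45) and Lta (9.08) came in this order with overlapping libraries, except that Lta lay under Ifng in each. The higher Ccl4 library also reached into the range of Tgfb1, and Ccl5 (3.10), Ccl3 (2.16) and Il2 (0.79) overlapped.

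The deposited regularized log (rlog) values, a log2 scale that DESeq2 draws toward each gene's mean where counts are few, were listed for the same 8 genes. Gzmb had 6.47 and 6.51 in Il10-EGFP- against 7.33 and 7.39 in Il10-EGFP+ libraries, a mean difference of 0.87. For Il10 the values were 3.69 and 3.70 against 4.15 and 4.26, a difference of 0.51 for a gene that went from 0 to 70 counts. The difference was -0.17 for Lta, -0.11 for Il2 and 0.00 for Ifng, so on this scale the low cytokine genes hardly varied. Limma on the rlog values called Gzmb (adjusted p = 0.0066) and Il10 (adjusted p = 0.014) and none of the other 6. DESeq2's Wald test, which called 1.17% of the tested genes, also called these 2 (adjusted p = 3.0e-07 for Gzmb and 0.00025 for Il10) and gave no adjusted p for Ifng, Il2, Ccl4, Tgfb1 and Lta.

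Genes averaging 20 counts or more, 4964 for Gzmb and 4965 for Il10, were ranked by likeness. Those whose centered log2 CPM profile over the 4 libraries lay nearest to Gzmb were Cenpf, a kinetochore protein (46, 47, 108 and 139 counts in Il10-EGFP- 1 and 2 and Il10-EGFP+ 1 and 2), Prc1, which bundles microtubules in cytokinesis, and Gbp7, an interferon-induced GTPase. Their root mean square differences from Gzmb were 0.07, 0.09 and 0.10 log2 units. Nearest to Il10 were Igkc (6, 18, 81 and 116 counts, 0.77 log2 units), the constant region of the immunoglobulin kappa chain, then Prdm1, which encodes Blimp-1 (1.11), and Gcnt1, a glycosyltransferase (1.16).

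For the other genes of the same pathways, 86 genes in 5 lists were examined, of which 43 had enough counts to be tested. Of the 43, 3 were called higher (Gzma and Ifngr1 among them), 3 were called lower (Serpinb9, Serpinb6b and Il2rg), and 37 did not pass. Their median log2 fold change was 0.12.

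The cytotoxic granule list had 12 of 16 genes tested, with 1 higher and 2 lower. Gzma, a second granzyme, had 9 and 18 counts in Il10-EGFP- against 31 and 31 in Il10-EGFP+ libraries (log2 fold change 1.29, edgeR adjusted p = 0.047). Serpinb9, an intracellular inhibitor of granzyme B, had 50 and 83 counts against 34 and 26 (log2 fold change -1.05, adjusted p = 0.022). Serpinb6b, a related serpin known to inhibit granzyme A, had 124 and 121 counts against 60 and 66 (log2 fold change -0.86, adjusted p = 0.0055). In these 4 libraries Gzmb and Gzma were thus higher and both serpins lower in Il10-EGFP+ T cells. DESeq2 did not call Gzma (adjusted p = 0.44), Serpinb9 (0.32) or Serpinb6b (0.13). Limma on the rlog values called Serpinb6b (adjusted p = 0.020) but not Gzma (0.12) or Serpinb9 (0.20). The granzyme genes Gzmc, Gzmk and Gzmm had at most 2 counts in any library. The call of Gzma was lost with scaling by library size only (edgeR adjusted p = 0.056). It was also lost without Il10-EGFP- replicate 1 (log2 fold change 0.83) and without either Il10-EGFP+ library. That of Serpinb9 was lost without Il10-EGFP- replicate 2 (-0.57, adjusted p = 0.53) or Il10-EGFP+ replicate 2. Srgn, the proteoglycan on which granzymes are stored, had 203 and 181 against 185 and 230 counts (adjusted p = 0.57), and the membrane protein Lamp1 had 109 and 87 against 62 and 72 (adjusted p = 0.28). Prf1, encoding perforin, was near the limit of detection, with 0 and 0 against 0 and 2 counts. Prf1 and Nkg7 are named here after their values were seen, and Nkg7 had 2 and 9 against 13 and 22 counts (log2 fold change 1.74, adjusted p = 0.074).

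Among receptors for these ligands, 13 of 18 genes were tested, with 2 higher and 1 lower. Ifngr1, a chain of the IFNγ receptor, had 31 and 44 against 69 and 60 counts (log2 fold change 0.88, edgeR adjusted p = 0.041). This call was lost with scaling by library size only (edgeR adjusted p = 0.054) and without replicate 1 of either population. Il2rg, the common chain that receptors for IL-2 and IL-21 share, had 316 and 300 against 196 and 213 counts (log2 fold change -0.49, adjusted p = 0.043), a call lost with any library left out. The other chains of the IL-2 receptor did not pass: Il2ra had 193 and 174 against 172 and 199 counts (adjusted p = 0.82), with a 95% interval of -0.20 to 0.44 for its log2 fold change, and Il2rb had 172 and 163 against 141 and 152 counts (adjusted p = 0.88).

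In a list of 30 other cytokine genes, 13 were tested and none was called by edgeR, where 5 had an unadjusted p under 0.05. DESeq2 called none either (1 at an unadjusted p under 0.05), nor did limma on the rlog values. The most abundant was Mif, with 402 and 374 counts against 237 and 308 (log2 fold change -0.41, edgeR adjusted p = 0.090). With a replicate block edgeR called Mif (adjusted p = 0.020). Il16 had 76 and 65 against 100 and 90 (adjusted p = 0.15), and Ltb, the partner of lymphotoxin-α on the cell surface, had 68 and 63 against 63 and 78 (adjusted p = 0.75). The genes of the type 2 and type 17 cytokines Il4, Il5, Il13 and Il17a were among the 11 with 0 counts in every library. These 4, Tnf and Il22 are named here after their values were seen. Tnf, which lies beside Lta in the genome, had 18 and 15 against 28 and 17 counts (adjusted p = 0.57), and Il22 had 9 and 8 against 2 and 2 (log2 fold change -1.92, adjusted p = 0.26). Of 13 other chemokine genes, 2 were tested. Cxcl9 had 3 and 6 against 17 and 10 counts (log2 fold change 1.66, adjusted p = 0.13) and Cxcl10 had 3 and 5 against 11 and 6 (adjusted p = 0.49), both known as interferon-induced ligands of CXCR3. In the list for TGF-β activation 3 of 9 genes were tested and none was called by edgeR, DESeq2 or limma (0 with an unadjusted p under 0.05 in edgeR and in DESeq2). Furin, the protease that cleaves the precursor, had 270 and 208 against 187 and 182 counts (adjusted p = 0.44), Nrros had 25 and 32 against 23 and 25, Itgav had 12 and 6 against 7 and 7, and Lrrc32, named after its values were seen, had between 0 and 2.

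**Figure D4:**
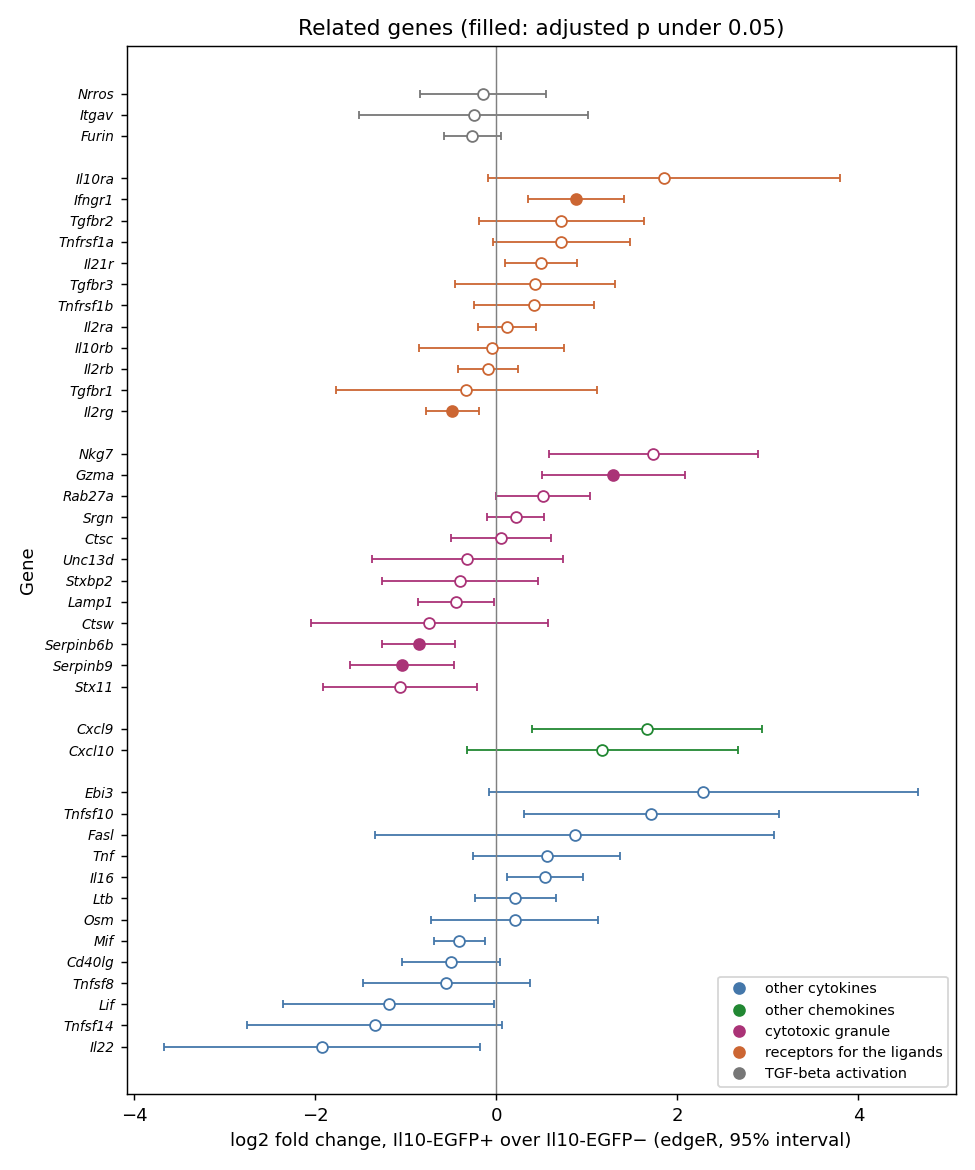
Log2 fold change of tested related genes (y axis, colored by list) between Il10-EGFP+ and Il10-EGFP- libraries (x axis), with 95% intervals from edgeR and n = 2 libraries each. Filled points passed an adjusted p under 0.05: Ifngr1 and Gzma to the right, Il2rg, Serpinb6b and Serpinb9 to the left.

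Markers of other cell types moved with the populations. Over 10 B cell and plasma cell markers the summed level was 148.0 and 208.6 CPM in Il10-EGFP- and 556.2 and 572.7 CPM in Il10-EGFP+ libraries, and 4 were called higher. Over 12 myeloid markers it was 105.9 and 137.2 against 389.8 and 199.1 CPM, and 2 were called higher. All 8 tested B-lineage markers had a log2 fold change above 0, as had 7 of the 8 tested myeloid markers. The immunoglobulin genes Igkc (6 and 18 against 81 and 116 counts) and Jchain (0 and 0 against 15 and 16) were called higher, and Ms4a1, at 2 and 4 against 4 and 9, did not pass. Cd79b had 1 and 1 against 4 and 2 counts, and Cd79a had 2 and 0 against 0 and 0. Of the myeloid genes, S100a8 (1 and 17 against 58 and 28) and Lyz2 (29 and 23 against 66 and 34) were called higher by edgeR. DESeq2 called neither S100a8 (adjusted p = 0.80) nor Lyz2 (0.42), nor did limma on the rlog values (adjusted p = 0.16 and 0.28). Both called Igkc (adjusted p = 4.6e-08 with DESeq2 and 0.013 with limma). S100a9 had 3 and 24 against 40 and 12 counts and was not called. Tyrobp had 3 and 3 against 17 and 7 counts and Csf1r 0 and 1 against 11 and 1, neither called, while Adgre1 and Cd14 were at 0 throughout. Il10 is also transcribed by B-lineage and myeloid cells and Gzma by other leukocytes, and the part of such RNA in these results was not tested. Over 10 CD8 T cell and NK cell markers, the cells best known for Gzmb, Ccl5 and Ifng, the sum was 38.0 and 55.4 CPM in Il10-EGFP- and 33.3 and 39.0 CPM in Il10-EGFP+ libraries. Ncr1 and Klra8 were at 0 in every library, and Klrb1c had 0 and 2 against 0 and 0 counts. Cd8a had 4 and 10 against 3 and 3 counts, Klrc1 had 1 and 3 against 5 and 2, and Eomes had 0 and 2 against 2 and 5. None of the 4 tested genes of this list was called by edgeR (0 at an unadjusted p under 0.05), and DESeq2 gave them no adjusted p.

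**Figure D5:**
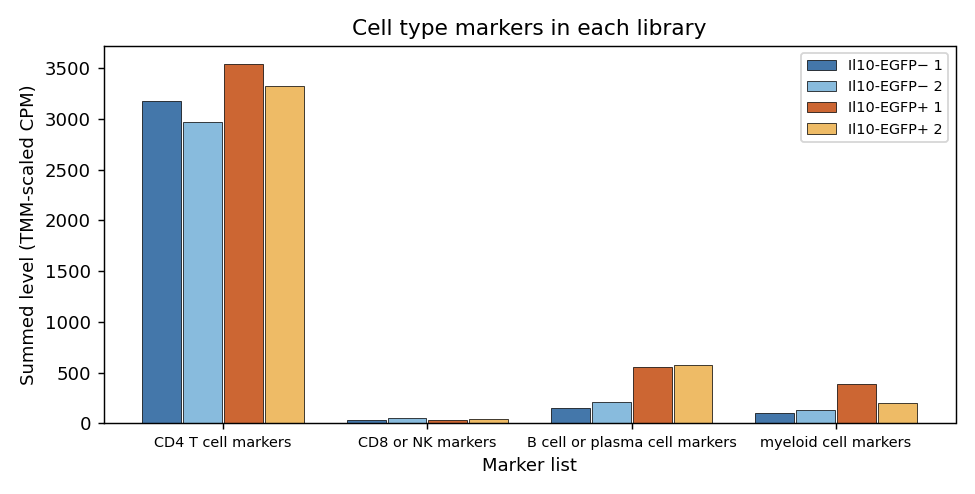
Summed TMM-scaled CPM (y axis, from 0) of 4 marker lists (x axis) in each library (bars). CD4 T cell markers reach between 2975 and 3543 CPM and CD8 or NK markers at most 55.4, while B cell or plasma cell markers and myeloid markers are higher in both Il10-EGFP+ libraries.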

How the data were processed

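RNA of sorted splenic CD4+ T cells was made into 3′ libraries (QuantSeq 3′ FWD, with unique molecular identifiers). The authors aligned reads to GRCm38 with STAR 2.5.2a and counted them per gene with HTSeq 0.6.0. The identifiers served, by the labels and methods, to assess duplicates and remove amplification bias. The annotation release, the strand setting and whether the deposited counts are of collapsed reads were not given in the sources used here. The deposited values were raw counts per Ensembl gene and DESeq2 rlog values (log2 scale) computed by the authors. A further replicate pair that the authors removed as an outlier was not analysed here. The labels and the methods name different RNA extraction kits.

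Counts were tested with edgeR 4.0.16 (quasi-likelihood, TMM scaling, genes with at least 10 counts over 4 libraries, Benjamini-Hochberg adjustment over 9608 genes, adjusted p under 0.05) in R 4.3.3. The alternatives were DESeq2 1.42.0, limma 3.58.1 (voom, and on rlog values), other scalings and filters, a replicate block and leaving out each library. The procedure was tested on simulated data. Totals were 644679 to 730330 counts. Counts of replicate libraries differed by more than sampling noise (chi-square per degree of freedom 2.15 and 1.97), so each was kept as a replicate. Ratios of summed counts used Clopper-Pearson intervals at 95%, which cover counting error only, as do limits at 3 counts. A lower bound was given only against 0 counts, as for Il10.

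Symbols, coordinates and overlaps came from GENCODE M21 (GRCm38), and promoter windows from RefSeq (GRCm38.p6). The 10 genes and the lists were chosen with earlier results of these data known. Named among the other genes were those called and, in each list, the 3 tested genes with the highest mean count. Some genes of these lists are not reported here.

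The deviations from the group means of libraries with the same number correlated at 0.03 over 4965 genes. With 2 libraries per population this cannot show whether the numbers pair them. The main fit had no block and called 393 genes, and a fit with a replicate block called 560.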

Additional observations from a re-analysis of the deposited data

How the results depend on the processing

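Il10 and Gzmb were called in all 13 alternatives, and Lta also in 1 of them, without Il10-EGFP- replicate 1. The genes called over the whole table went from 393 to 112 with DESeq2, 197 with limma on rlog values, 177 at an adjusted p under 0.01, and between 201 and 264 with 1 library left out. The related genes called went from 6 to 0 with DESeq2 (8 at an unadjusted p under 0.05), 2 with limma on rlog values, 2 at an adjusted p under 0.01, and between 2 and 4 with 1 library left out. Fits without a library leave a lone one, assumed to vary like the other group. With library size only, 4 related genes were called, 1 higher and 3 lower. The 2 related genes that limma called on rlog values were both lower. With a replicate block 560 genes, the same number of effector genes (2) and 8 related genes were called, among them Mif (log2 fold change -0.41, adjusted p = 0.020) and Nkg7 (1.77, adjusted p = 0.040), which did not pass without it, with same-numbered libraries hardly deviating together (correlation 0.03). Signs turned for some genes that were not called: Ifng was at -0.0147 with library size only and between -0.15 and 0.17 with 1 library left out, Ccl4 between -1.54 (without Il10-EGFP+ replicate 2) and 1.78, Nrros between -0.36 and 0.10, and Itgav between -0.61 and 0.27. The cause was not tested. Genes under about 10 counts per library, as the chemokines, Il2 and Ifng were, are limited by depth.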
